A study of Mus musculus with 4 samples.

Results

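The loci of 7 AP-1 family genes, Fos, Fosb, Fosl2, Jun, Junb, Jund and Atf3, were examined in ATAC-seq data of bone marrow monocytes from mouse femur and mandible. Members were all peaks that overlapped a window of 30 to 90 kb around each gene on GRCm39, and 55 of the 57090 peaks met this rule. There were 15 peaks in the Fos window, 11 in that of Fosb, 4 in that of Fosl2, 3 in that of Jun, 8 in that of Junb, 3 in that of Jund and 11 in that of Atf3, and 2 of the 55 crossed the edge of a window. The windows were chromosome 12 from 85490000 to 85550000 for Fos, chromosome 7 from 19010000 to 19060000 for Fosb and chromosome 5 from 32270000 to 32340000 for Fosl2. They were chromosome 4 from 94910000 to 94970000 for Jun, chromosome 8 from 85690000 to 85720000 for Junb and from 71140000 to 71170000 for Jund, and chromosome 1 from 190880000 to 190970000 for Atf3. The reference tables used here are on GRCm38.p6 and not on the build of the peaks, and the peaks could not be assigned to a promoter, exon, intron or untranslated region, and the peak of each window with the most reads stands for its gene. The windows also hold sequence beside the genes. In RefSeq on GRCm38.p6, the nearest protein-coding genes on either side are Prdx2 and Hook2 for Junb, Rtn2 and Ercc1 for Fosb, and Lsm4 and Iqcn for Jund, and a peak of a window may belong to such a neighbour.

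AP-1 is a transcription factor made of pairs of basic leucine zipper proteins. A Jun protein pairs with another Jun, with a Fos protein or with a relative of the ATF family, and the pair binds AP-1 sites or the related cyclic AMP response element (CRE). Fos, Fosb, Jun, Junb and Atf3 belong to the immediate-early genes, which are transcribed within minutes of a stimulus, whereas Jund is transcribed more evenly. In the monocyte lineage, Fos is required for the formation of osteoclasts downstream of receptor activator of NF-kappa B ligand.

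The reference promoters of Junb, Jun, Fos and Atf3 are shown because CRE-like sites near the start site are where AP-1 and ATF proteins can act on genes of the same family. Each sequence holds the 250 bases before the RefSeq start site, 5′ to 3′, on GRCm38.p6. These coordinates are not those of the GRCm39 peaks. Capitals mark matches to TGACG, the core of the CRE, or its reverse complement CGTCA, and to TGACATCA, a variant of the AP-1 site, on either strand.
Junb (chr8:84978749-84978998, minus strand): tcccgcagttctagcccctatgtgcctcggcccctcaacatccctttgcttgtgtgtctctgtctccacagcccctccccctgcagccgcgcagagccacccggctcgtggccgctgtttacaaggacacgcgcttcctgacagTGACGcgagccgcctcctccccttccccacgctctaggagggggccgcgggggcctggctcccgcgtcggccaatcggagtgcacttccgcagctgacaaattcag
Jun (chr4:95052223-95052472, minus strand): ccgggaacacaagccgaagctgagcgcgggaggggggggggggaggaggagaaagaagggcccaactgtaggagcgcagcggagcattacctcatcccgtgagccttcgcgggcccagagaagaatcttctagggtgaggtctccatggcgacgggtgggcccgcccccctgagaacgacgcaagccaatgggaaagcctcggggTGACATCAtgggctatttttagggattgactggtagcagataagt
Fos (chr12:85473640-85473889, plus strand): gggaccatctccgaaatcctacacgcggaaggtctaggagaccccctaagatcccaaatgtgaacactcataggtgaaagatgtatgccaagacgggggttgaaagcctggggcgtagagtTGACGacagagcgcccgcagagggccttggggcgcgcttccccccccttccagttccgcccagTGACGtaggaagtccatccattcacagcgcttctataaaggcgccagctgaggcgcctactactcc
Atf3 (chr1:191183334-191183583, minus strand): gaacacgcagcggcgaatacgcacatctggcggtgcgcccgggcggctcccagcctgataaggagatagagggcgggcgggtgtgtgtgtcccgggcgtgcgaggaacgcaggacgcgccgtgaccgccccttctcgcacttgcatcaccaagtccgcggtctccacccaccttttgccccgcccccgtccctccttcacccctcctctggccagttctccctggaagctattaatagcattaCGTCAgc
The first base of the match lay 106 bases before the start site in Junb, 45 in Jun, 129 and 66 in Fos and 7 in Atf3. TGACG matched in 4 of the 7 members' promoters (Fos, Fosb, Junb and Atf3) and in 17.8% of the 32851 RefSeq promoters of the same length. TGACATCA, which does not contain TGACG, matched in Jun alone among the members and in 2.93% of all promoters. The AP-1 site TGANTCA (6.75% of all promoters), the full CRE TGACGTCA, which contains TGACG (1.55%), and the CArG box (1.47%) matched in 0 of the 7 members within these 250 bases. Sequence further upstream was not scanned. The TATA box TATAAA matched in Fos, 33 bases before its start site, and in 12.4% of all promoters on either strand. A match describes these letters and is not a measured binding site.

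Each skeletal site had 2 libraries, each from 20000 monocytes of 2-month-old C57BL/6J mice. The labels give male mice, whereas the methods on isolating monocytes name both sexes. In each batch, the marrow of 4 pooled mice gave a femur and a mandible library, replicate 1 of both sites in batch A and replicate 2 in batch B, so pools and not single animals were compared. The labels call the cells CD11b+, and they were isolated as the unbound fraction of a magnetic monocyte kit. Marker genes of other cell types were not checked, because peaks could not be assigned to genes. The libraries held 27464565 to 75294068 counts in peaks, a range of 2.74 times. Femur replicate 2, the deepest, was the highest library in 33.1% of all peaks and the lowest in 32.6%. The 55 peaks took 0.378% of the counts of femur replicate 1, 0.334% of femur replicate 2, 0.381% of mandible replicate 1 and 0.438% of mandible replicate 2. Their lowest count in any library was 55 and their highest 28080.

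Each of the 7 windows held a very wide accessible region. The highest peak of the window was 7007 bp long at Jun, 7138 bp at Junb, 7208 bp at Fosl2, 8592 bp at Jund, 9037 bp at Fos, 11374 bp at Fosb and 18588 bp at Atf3, against a median of 364 bp for all peaks. The peak at Atf3, a gene induced by cellular stress, was the longest of all 57090. Only 23 peaks of the genome were 7007 bp or longer, and 7 of these 23 were the highest peaks of the AP-1 windows. This cut was set at the narrowest of the 7, so all 7 pass it by construction. The other 48 peaks of the windows were 159 to 2188 bp long, with a median of 546 bp.

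**Figure D1:**
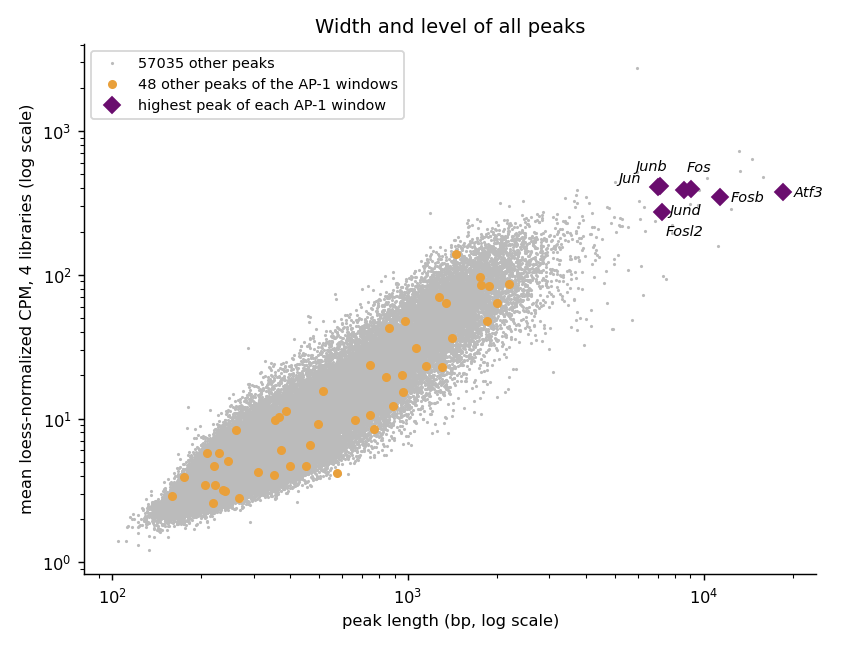
Mean loess-normalized CPM over 4 libraries (vertical axis, log scale) against peak length in bp (horizontal axis, log scale) for all peaks. The highest peaks of the 7 AP-1 windows (diamonds) lie at 7007 to 18588 bp, at the wide end of all peaks. The other 48 peaks of the windows (circles) lie at 159 to 2188 bp and at 2.57 to 139 CPM.

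The same 7 regions were among the most accessible ones. Levels are given as loess-normalized CPM, which are counts scaled to a common library size with a curve that removes differences between libraries that depend on level. The mean over the 4 libraries ranged from 272 CPM at Fosl2 to 416 CPM at Junb, against a median of 6.71 CPM for all peaks. Of all peaks, 37 reached 272 CPM or more, and 7 of these were the AP-1 regions. This cut was set at the lowest of the 7, themselves the highest peaks of their windows, so all 7 pass it by construction. Junb ranked 9, Jun 10, Fos 11, Jund 12, Atf3 15, Fosb 18 and Fosl2 37 by mean level. These levels grow with peak length, so genes are compared per kb of peak. Per kb, Jun and Junb had the densest signal, 58.5 and 58.3 CPM per kb, followed by Jund with 45.1, Fos with 44.0, Fosl2 with 37.7, Fosb with 30.6 and Atf3 with 20.3. The median of all peaks was 19.5 CPM per kb, so the 18588 bp region of Atf3 stood out in width and not in density. The 16 peaks of 7007 bp or longer outside the windows had a median of 30.9 CPM per kb, from 12.5 to 55.4. Jun and Junb lay above that range, and Fosb and Atf3 lay below its median. The median level of these 16 peaks was 307 CPM, so high levels were shared by other wide peaks.

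The smaller peaks around them differed from locus to locus. At Jun and Jund nearly all signal lay in the wide region, which held 97.8% and 93.0% of the summed CPM of the window. At Fos it held 49.8%, at Atf3 57.9%, at Junb 62.5%, at Fosb 65.8% and at Fosl2 82.3%. These shares also depend on where each window was drawn, since the windows were 30 to 90 kb long and held 3 to 15 peaks. The densest member of all 55 was Peak_12599 in the Fos window, 1451 bp long on chromosome 12 from 85501510 to 85502960, with 96.1 CPM per kb. It lay 15534 bp before the wide Fos region and had 139 and 153 CPM in femur replicates 1 and 2 and 129 and 136 CPM in mandible replicates 1 and 2. Here and below, before and after a wide region follow chromosome coordinates and not the direction of transcription. Both mandible values of this peak lay below both femur values (log2 fold change -0.14, standard error 0.093, edgeR adjusted p = 0.999994), and the log2 fold change was 0.10 with TMM.

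**Figure D2:**
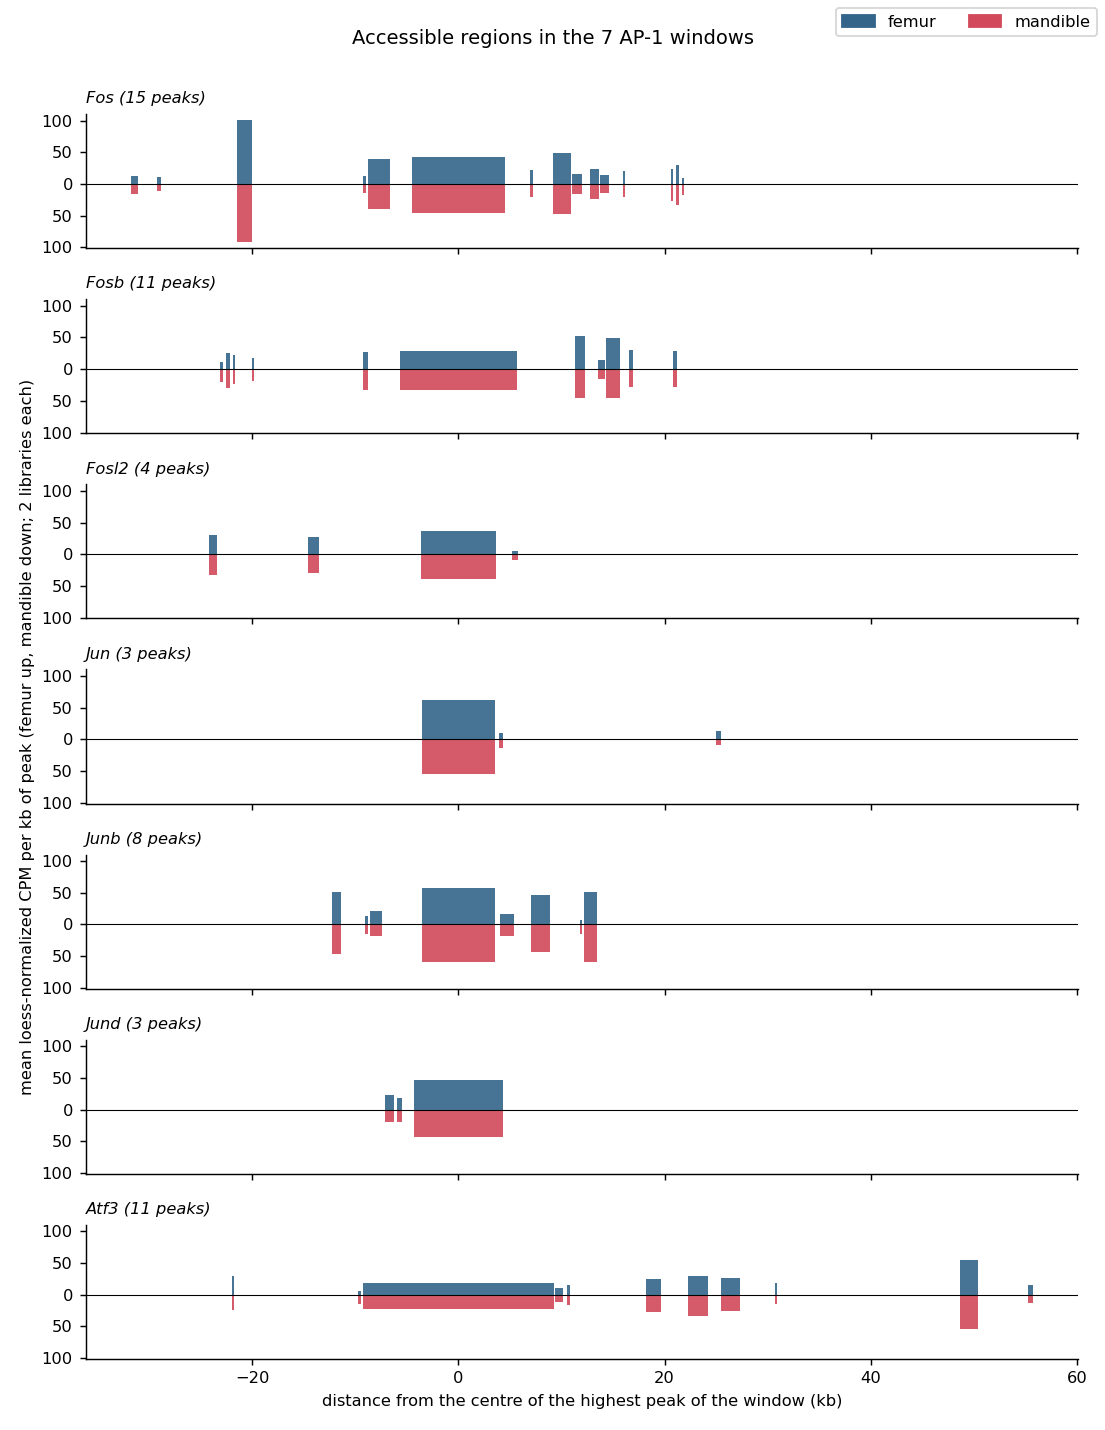
Peaks of the 7 windows by distance in kb from the centre of the highest peak (horizontal axis), with mean loess-normalized CPM per kb of peak, n = 2 libraries per site, drawn upward for femur and downward for mandible. A wide region lies in every window, and femur and mandible differ little in its height. Peak_12599 in the Fos window is the tallest, with 96.1 CPM per kb over both sites.

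Accessibility of femur and mandible monocytes was compared to ask whether these loci differ between skeletal sites. No member peak passed the threshold. With edgeR's quasi-likelihood test on loess-normalized counts and Benjamini-Hochberg adjustment over all 57090 peaks, 0 of the 55 peaks had an adjusted p under 0.05 (0.00701% of all peaks), and 5 had an unadjusted p under 0.05 (2.71% of all peaks). DESeq2 called 0 of the 37 members to which it gave an adjusted p (0.0491% of all peaks with one), with 10 of the 55 at an unadjusted p under 0.05 (2.81% of all peaks). Other scalings in edgeR also called 0, with 11 at an unadjusted p under 0.05 each for TMM (4.54% of all peaks, and 0.0105% at the adjusted threshold) and for library size alone (5.71%). Over the 55 peaks the median log2 fold change, mandible against femur, was 0.056, against -0.0044 over all peaks, and 32 of the 55 were above 0 (49.1% of all peaks). The median of the 55 was 0.10 with TMM, against -0.014 over all peaks, and 0.0043 with library size alone, against -0.12 over all peaks. With loess it was -0.092 without mandible replicate 2, 0.028 without femur replicate 2 and 0.15 without mandible replicate 1. Its direction thus turned with 1 library. In 12 of the 55, both mandible libraries lay above both femur libraries (13.3% of all peaks), and in 7 both lay below (13.8%). With 2 libraries a site, p-values measure the spread between these pools, and edgeR shares that spread across peaks.

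Junb, whose product dampens or drives transcription depending on its partner, had a higher mean in mandible by an amount that depended on the scaling. Its wide region, Peak_51519 on chromosome 8 from 85700766 to 85707903, had 410 and 406 CPM in femur replicates 1 and 2 and 416 and 432 CPM in mandible replicates 1 and 2 after loess normalization. Both mandible values lay above both femur values, with means of 408 ± 2.60 (SD, n = 2) and 424 ± 11.7 (SD, n = 2). The log2 fold change was 0.055 (standard error 0.061, 95% interval -0.073 to 0.18, edgeR adjusted p = 0.999994), which bounds the fold between 0.951 and 1.14 under this scaling. With TMM, which scales each library by a single factor, the same peak had 401 and 325 CPM in femur and 494 and 465 CPM in mandible. Its log2 fold change was then 0.40 (standard error 0.13, unadjusted p = 0.00525, adjusted p = 0.936 from edgeR). It was 0.41 with DESeq2 (adjusted p = 0.998), and with library size alone 0.30, or 0.42 above the median of all peaks of -0.12. None of these scalings brought it past the threshold, and the loess value was between 0.030 and 0.082 when any single library was dropped.

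The other 7 peaks of the Junb window had values on both sides of 0. Peak_51523, 1274 bp long, had 69.3 and 60.8 CPM in femur and 76.1 and 75.5 CPM in mandible, which did not overlap. Its value was a log2 fold change of 0.22 (standard error 0.12, unadjusted p = 0.0782 and adjusted p = 0.999994 in edgeR) with loess, and of 0.39 with TMM (unadjusted p = 0.0128 in edgeR). Peak_51518 and Peak_51521 had lower values in both mandible libraries than in both femur libraries, with log2 fold changes of -0.17 and -0.09 with loess, and -0.12 and 0.10 with TMM.

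The other Jun genes had a lower mean in mandible with loess and a higher one with TMM, DESeq2 and library size alone. Jun encodes the founding member of the family. Its region, Peak_37569 on chromosome 4 from 94935328 to 94942334, had 447 and 416 CPM in femur replicates 1 and 2 and 340 and 436 CPM in mandible replicates 1 and 2. Mandible replicate 1 was the low library, and mandible replicate 2 lay between the femur values. The log2 fold change was -0.15 (standard error 0.087, 95% interval -0.34 to 0.030, adjusted p = 0.999994 from edgeR), and it was 0.18 with TMM. At Jund, the region from 71150682 to 71159273 of chromosome 8 had 371, 436, 346 and 398 CPM, in the order femur replicates 1 and 2 and mandible replicates 1 and 2. Femur and mandible overlapped, and the log2 fold change was -0.12 with loess (standard error 0.080, 95% interval -0.29 to 0.052, adjusted p = 0.999994 from edgeR) and 0.23 with TMM.

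The Fos genes had a higher mean in mandible. Fos, the partner of Jun that osteoclast formation requires, had 401, 357, 377 and 457 CPM in its region, Peak_12602 on chromosome 12 from 85518495 to 85527531, in the same order of libraries. Mandible replicate 1 lay between both femur libraries and mandible replicate 2 above them, and the log2 fold change was 0.14 (standard error 0.082, 95% interval -0.035 to 0.31, adjusted p = 0.999994 from edgeR). Fosb, an immediate-early relative of Fos, had 310, 351, 290 and 443 CPM in Peak_46709 on chromosome 7 from 19033173 to 19044546. Here the mandible libraries were the lowest and the highest of the 4, and the log2 fold change was 0.15 (standard error 0.12, 95% interval -0.11 to 0.41, adjusted p = 0.999994 from edgeR). Fosl2, also called Fra-2, had 281, 244, 286 and 277 CPM in Peak_40175 on chromosome 5 from 32290170 to 32297377. Femur replicate 2 was lowest, and the log2 fold change was 0.10 (standard error 0.079, 95% interval -0.063 to 0.27, adjusted p = 0.999994 from edgeR). It was 0.0042 when that library was dropped. These 3 log2 fold changes were larger with TMM, 0.47 for Fos, 0.47 for Fosb and 0.40 for Fosl2.

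Atf3 had the largest spread between replicates of the 7. Its region, Peak_3804 on chromosome 1 from 190898066 to 190916653, had 396 and 296 CPM in femur replicates 1 and 2 and 282 and 535 CPM in mandible replicates 1 and 2. Both mandible libraries thus enclosed both femur libraries, and the highest was 1.90 times the lowest. The log2 fold change was 0.24 (standard error 0.18, 95% interval -0.14 to 0.62, adjusted p = 0.999994 from edgeR) with loess and 0.54 with TMM. Batch A gave -0.49 and batch B 0.85. Across the locus, all 11 peaks had lower values in mandible in batch A, and 9 of the 11 had higher ones in batch B (28.6% of all peaks had that combination). Over all peaks the median log2 difference in batch A was -0.0034. The 11 peaks are neighbours in 1 window, read in the same libraries, and do not count as separate replicates. The log2 fold change of Peak_3804 was 0.62 without mandible replicate 1, 0.47 without femur replicate 1, 0.042 without femur replicate 2 and -0.27 without mandible replicate 2. Without femur replicate 1, the femur library left (296 CPM) still lay between the mandible libraries (282 and 535 CPM).

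**Figure D3:**
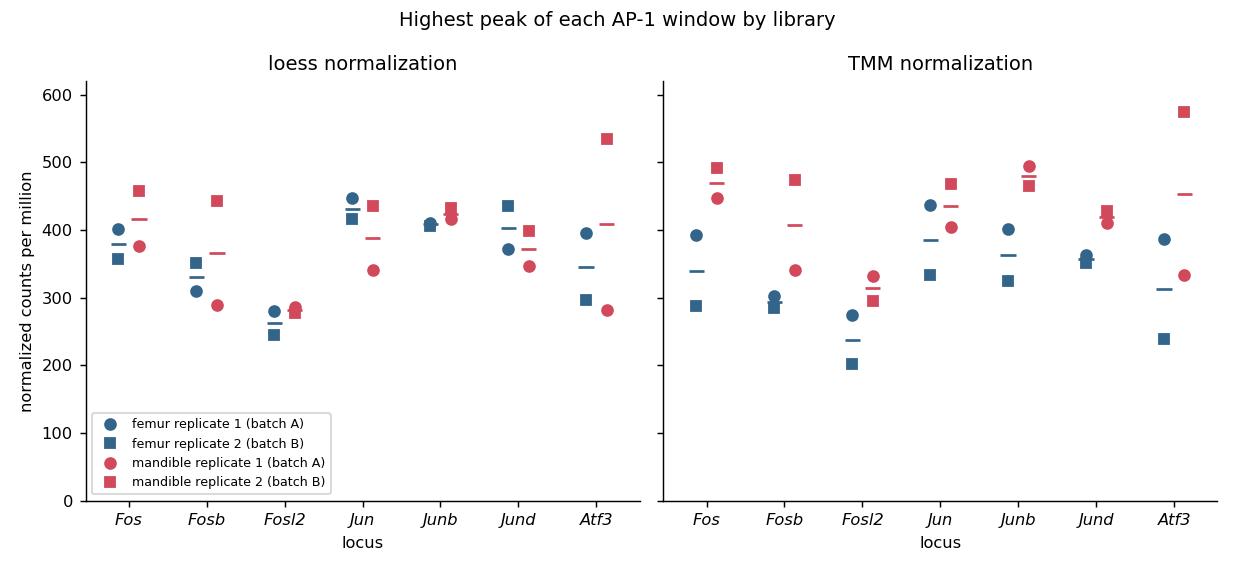
Normalized CPM of the highest peak of each window (vertical axis) in each of the 4 libraries, for the 7 loci (horizontal axis), with loess normalization on the left and TMM on the right. Bars are means of 2 libraries per site. With loess both mandible libraries lie above both femur libraries at Junb alone, and with TMM at 5 of the 7 loci.

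The effect of scaling was shared by peaks of like level. Relative to loess, TMM moved the log2 fold change of the 7 regions by a median of 0.33, and that of the 30 other peaks of 272 CPM or more by a median of 0.32. With TMM, both mandible libraries lay above both femur libraries in 5 of the 7 regions (16.1% of all peaks), those of Fos, Fosb, Fosl2, Junb and Jund, and in 24 of the 30 other peaks of this level. Also with TMM, 5 of the 7 had an unadjusted p under 0.05 from edgeR and higher values in mandible (2.49% of all peaks), against 19 of the 30. With loess the medians were 0.10 for the 7 regions and -0.0080 for the 30 others, and with TMM 0.40 and 0.31.

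The difference between sites varied from batch to batch. Of the 7 regions, Junb and Fosl2 were higher in mandible in both batches and Jund lower in both. Fos, Fosb, Jun and Atf3 were lower in mandible in batch A and higher in batch B, a combination seen in 28.6% of all peaks. It was also seen in 9 of the 16 peaks of 7007 bp or longer outside the windows. In log2 units, batch A and batch B gave 0.020 and 0.089 for Junb, 0.029 and 0.18 for Fosl2, -0.10 and -0.13 for Jund, -0.090 and 0.35 for Fos, -0.096 and 0.33 for Fosb, and -0.39 and 0.066 for Jun. Over all 55 peaks, 13 were higher in mandible in both batches (20.3% of all peaks), 13 were lower in both (22% of all peaks), and 29 had opposite signs (57.7% of all peaks). Mandible replicate 2 was the highest library in 4 of the 7 regions (in 26.6% of all peaks), and mandible replicate 1 was the lowest in 4 (in 21.7% of all peaks). With the batch as a replicate block, 0 of the 55 peaks passed the threshold (0.0998% of all peaks), and 9 had an unadjusted p under 0.05 from edgeR (2.96% of all peaks). Of these 9, 7 had higher values in mandible (2.22% of all peaks) and 2 lower ones (0.746%), and they included the wide regions of Fos (unadjusted p = 0.0335 from edgeR), Jun (unadjusted p = 0.00885 from edgeR) and Atf3 (unadjusted p = 0.0124 from edgeR). At Fos, Jun and Atf3, however, the wide region differed in opposite directions between the batches. The fit with the block gave it standard errors of 0.062, 0.062 and 0.073, although the batches of Atf3 gave -0.49 and 0.85. These unadjusted p-values therefore do not measure the disagreement between batches, and do not show a difference that the batches share. The lowest adjusted p of a member in that fit was 0.504.

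**Figure D4:**
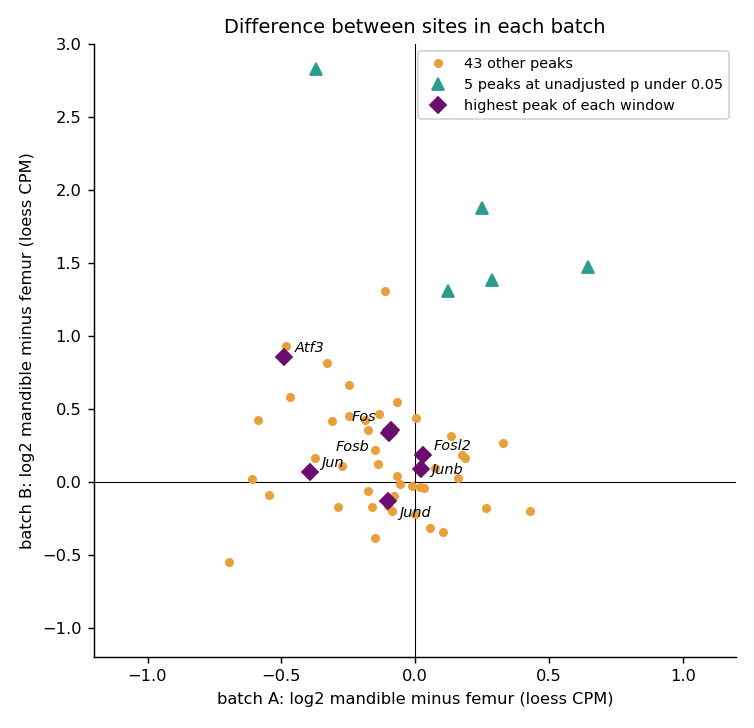
Log2 difference of mandible minus femur in loess-normalized CPM for the 55 member peaks in batch A (horizontal axis) and batch B (vertical axis). Points in the upper left, among them the highest peaks of Fos, Fosb, Jun and Atf3, were lower in mandible in batch A and higher in batch B. The 5 peaks at an unadjusted p under 0.05 lie above 1.3 in batch B.

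The 5 peaks with an unadjusted p under 0.05 were all small regions with higher values in mandible. Of all peaks, 1.61% were past that p in this direction and 1.1% in the other, and of the 35625 peaks with a mean under 10 CPM these were 1.93% and 1.5%. They lay in the windows of Fos, Fosb, Fosl2, Junb and Atf3, had lengths of 219 to 575 bp and means of 2.57 to 6.01 CPM, and were 5 of the 24 member peaks with a mean under 10 CPM. The adjusted p was 0.999994 for each with edgeR. The largest difference was that of Peak_3803, which ends 139 bp before the wide region of Atf3 in chromosome coordinates. It had 108, 74, 55 and 155 counts, or 2.38, 0.868, 1.84 and 6.17 CPM, in femur replicates 1 and 2 and mandible replicates 1 and 2. Its log2 fold change was 1.33 (standard error 0.50), -0.37 in batch A and 2.83 in the other batch, so the difference lay in batch B.

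In the other 4, both mandible libraries lay above both femur libraries (13.3% of all peaks). These peaks were picked by their unadjusted p, which favours such a separation. Peak_51522 in the Junb window, 8194 bp after the wide region, had 2.24, 1.15, 2.67 and 4.22 CPM, a log2 fold change of 1.04 (standard error 0.39, unadjusted p = 0.0150 from edgeR). Peak_40176, 1574 bp after the wide region of Fosl2, had 4.06, 1.67, 6.35 and 4.64 CPM, a log2 fold change of 0.97 (standard error 0.36, unadjusted p = 0.0143 from edgeR). Peak_46704 in the Fosb window had 5.92, 3.03, 7.22 and 7.88 CPM, with a log2 fold change of 0.77. Peak_12611 in the Fos window had 2.89, 1.90, 3.15 and 4.69 CPM, with a log2 fold change of 0.72.

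Femur replicate 2 was the lowest library in all 5 peaks (in 32.3% of all peaks with a mean under 10 CPM). All 5 had higher values in mandible, which favours a femur library as the lowest. Leaving femur replicate 2 out lowers each difference by construction. Without it, their log2 fold changes were 0.35 to 0.73, and 1 of them, Peak_3803, kept an unadjusted p under 0.05 in edgeR. With femur replicate 1 dropped, 8 member peaks were past the adjusted threshold (4.71% of all peaks were). These were Peak_46704, Peak_40176, Peak_37570 of the Jun window, Peak_51522 and 4 peaks of the Atf3 window. Without mandible replicate 1, the number was 1, Peak_3804 (0.028% of all peaks were past the threshold in that fit). In each such fit the lone library of a site is taken to vary like the others. These calls therefore do not measure the spread within that site.

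The most negative log2 fold change of the 55 was that of Peak_37571 in the Jun window, 21468 bp after the wide region. It had 4.62 and 6.59 CPM in femur and 2.86 and 4.51 CPM in mandible, so both mandible values lay below both femur values. The log2 fold change of this peak was -0.62 (standard error 0.29, unadjusted p = 0.0509 and adjusted p = 0.999994 in edgeR), -0.69 in batch A and -0.55 in the other batch. It was -0.33 without femur replicate 2, -0.34 without mandible replicate 1 and -0.98 without mandible replicate 2.

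**Figure D5:**
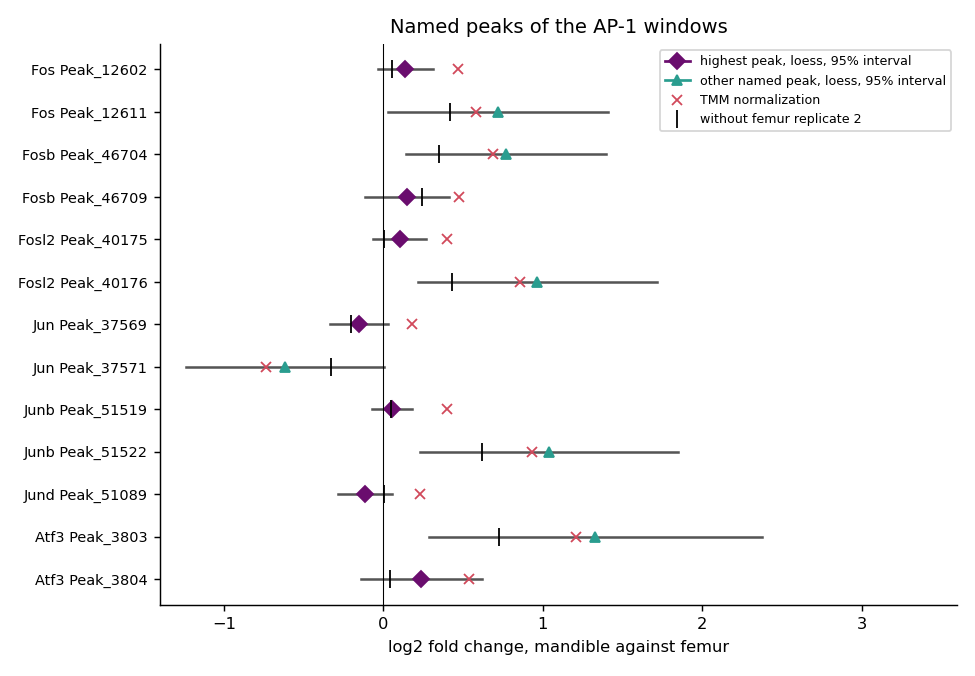
Log2 fold change of mandible against femur (horizontal axis) for 13 named peaks (vertical axis), with loess normalization and 95% intervals from edgeR, beside the value with TMM (crosses) and without femur replicate 2 (ticks). The highest peaks lie within 0.24 of 0 with loess and all lie above 0 with TMM, and 5 small peaks have intervals above 0. The ticks of these 5 lie at 0.35 to 0.73, where dropping femur replicate 2, their lowest library, lowers the value by construction.

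Levels were also summed over all peaks of a window. The Junb locus summed to 659 and 653 CPM in femur and 663 and 687 CPM in mandible, and the Fosl2 locus to 334.3 and 302 CPM in femur and 353 and 334.4 CPM in mandible. In these loci the sites did not overlap, by a small margin at Fosl2, and the exact permutation test over libraries, two-sided, gave p = 0.333, which is the smallest p that 2 against 2 libraries allow. The log2 differences were 0.041 for Junb and 0.11 for Fosl2 with loess, and 0.31 and 0.38 with TMM. With single libraries left out, the loess difference at Fosl2 was between 0.037 (without femur replicate 2) and 0.19 (without femur replicate 1), and that at Junb between 0.016 (without mandible replicate 2) and 0.066 (without mandible replicate 1). The other 5 loci overlapped between sites, with log2 differences of 0.050 for Fos, 0.066 for Fosb, 0.13 for Atf3, -0.11 for Jund and -0.16 for Jun with loess, and an exact permutation p of 0.667 or 1. With TMM all 5 were above 0, at 0.30 for Fos, 0.31 for Fosb, 0.38 for Atf3, 0.21 for Jund and 0.18 for Jun, so those of Jun and Jund turned. Without mandible replicate 2 and without mandible replicate 1, the loess difference was -0.055 and 0.16 for Fos, -0.17 and 0.30 for Fosb, -0.19 and 0.45 for Atf3 and -0.34 and 0.015 for Jun, while that of Jund lay between -0.22 (without femur replicate 1) and -0.0018 (without femur replicate 2). A read count over a region of 7007 to 18588 bp does not resolve a change in a small part of it.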

How the data were processed

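The members and lists were chosen with earlier results of these data known. In ATAC-seq, a transposase tags DNA where chromatin is accessible. Reads had been trimmed (Trimmomatic), mapped to GRCm39 (Bowtie2) and filtered for duplicates and for a mapping quality of at least 20. The authors called peaks with Genrich in its ATAC mode in both libraries of a site together, and a merged set of both sites was counted. The deposited values are raw counts per merged peak from featureCounts 2.0.6, in which both reads of a pair count. A shift of reads for the transposase before counting was not given in the sources used here.

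The tests used edgeR 4.0.16 (R 4.3.3, limma 3.58.1) with loess offsets (pseudocount 0.5), glmQLFit and glmQLFTest and the skeletal site as the only term, over all 57090 peaks. The default filter removed 0 peaks, and all 55 members had at least 10 counts in every library. Standard errors are the log2 fold change over the square root of F. The loess fit in edgeR and the DESeq2 fit of all 4 libraries were tried on counts simulated at 1 common dispersion. These counts held no batches and no differences between libraries that depend on level. The other fits were not tried in this way. Alternatives were TMM, library size alone, DESeq2 1.42.0, 2 filters, thresholds of 0.01 and 0.1, the batch as a replicate block and each library left out. Same-numbered libraries share a batch of pooled mice in the labels, so the numbers pair them, and their deviations from the site means correlated at -0.167 across peaks. Named were the highest peak of each window and each peak with an unadjusted p under 0.05 without or with the block, 13 in all. The rule to name a promoter peak by its start site, other AP-1 pathway genes, genes of like pattern, cell type markers and a narrower window need a GRCm39 annotation and were not analysed here. Peaks described beyond the 13 were chosen after their values were seen. Promoter sequences came from RefSeq (GRCm38.p6), where 7 of 7 genes matched.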

Additional observations from a re-analysis of the deposited data

How the results depend on the processing

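The count of 0 members past the threshold held with TMM, library size alone, DESeq2, both filters, the replicate block, thresholds of 0.01 and 0.1 and thinning to the smallest total, and ranged from 0 to 8 with each library left out. It was 2 with a crossed pairing, which was chosen, like thinning, after seeing the data, since same-numbered libraries tended to deviate in opposite ways, with 207 calls over all peaks against 57 with the pairing by batch. At an unadjusted p under 0.05 there were 5 members, 11 with TMM (10 higher and 1 lower), 11 with library size alone, 10 with DESeq2, 9 with the replicate block, 9 with the crossed pairing (5.91% of all peaks) and from 3 (without femur replicate 2, 1.37% of all peaks) to 17 (without femur replicate 1, 16.4% of all peaks) with each library left out. Over all peaks, the block raised the number past the adjusted threshold from 4 to 57, and 0 of these were members. The log2 fold change of the Jun region turned to 0.18 with TMM, 0.083 with library size alone and 0.19 with DESeq2, and that of Jund to 0.23, 0.13 and 0.24. With each library left out it ranged from -0.34 to 0.0088 for Jun, -0.22 to 0.0047 for Jund, -0.0012 to 0.27 for Fos, -0.17 to 0.42 for Fosb and -0.27 to 0.62 for Peak_3804, and from -0.060 to 2.16 for Peak_3803. The cause was not tested. Keeping all peaks of at least 1 count repeats the same fit. The window around each gene alone and the promoter peaks of other AP-1 pathway genes were not run. With 2 libraries a site, the spread between replicates limits what can be detected.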
